A study of Mus musculus with 2 samples.

Results

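The 33 genes described here are those of glycolysis and of the response to low oxygen, out of 33670 gene symbols in the count matrices. They were chosen by symbol and not by a threshold on their values, but with earlier results of these data known. All 33 were found in both libraries. The list holds 2 glucose transporters, 13 glycolytic enzymes, 2 regulators of phosphofructokinase, 3 genes of lactate and pyruvate handling, 3 genes of the HIF pathway and 10 further genes known to be induced by HIF. The study followed inflammation in the thalamus after cortical ablation injury (CAI), in which part of the cortex that projects there is removed, and asked what blocking CD9, a tetraspanin of the cell surface, did to the immune cells that gather there. Live CD45+ cells, that is leukocytes and microglia, were sorted from the thalamus and sequenced as single cells.

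There were 2 groups, each of 1 library. In both, C57B6/J mice had undergone CAI and carried a cannula into the thalamus on the injured side. One group received control Ab, which was normal rat IgG, and the other anti-CD9 Ab, the rat clone KMC8, both at 1.0 µg/µl, with injections from day 7 to day 19 after injury and collection on day 21. The study's methods describe mice of about 12 weeks of age and pools of 4 mice for the thalamus, without restating the number for the antibody groups. Mice that were injured but received no antibody, and uninjured mice, are not analysed here. With 1 library per antibody, no test between the antibodies was possible, and the antibody, the pool of mice and the library cannot be told apart. Intervals are 95% intervals of the counts and cover counting error only. Paired values below give the control Ab library first and the anti-CD9 Ab library second.

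Glycolysis splits glucose into pyruvate in the cytosol, and cells that convert pyruvate to lactate can make ATP in this way without oxygen. The transcription factor HIF-1, whose alpha subunit is encoded by Hif1a, is marked for destruction by prolyl hydroxylases when oxygen is present and, when stable, induces most genes of the pathway. Activated macrophages, neutrophils and effector T cells are known to rely on glycolysis, whereas resting microglia use oxidative metabolism to a larger extent.

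After filtering, 7467 of 12245 barcodes remained in the control Ab library and 9162 of 15173 in the anti-CD9 Ab library, with 24940542 and 22664880 UMIs and medians of 1880 and 1419 UMIs per cell. Of the kept barcodes, 18 occurred in both libraries. The cells formed 23 clusters, of which 19 were named from marker genes and are called microglia-like, macrophage-like and so on. The unnamed clusters held 600 and 1566 cells (8.04% and 17.1%), and the largest of them, cluster 4, held 38 and 1268. The named types included astrocyte-like, oligodendrocyte-like and neuron-like clusters, cells that do not carry CD45 (426 and 78, 304 and 95, and 292 and 75 cells). The 4 types on which the comparison rests differed strongly in size between the libraries. Microglia-like cells numbered 2006 and 854, T cell-like cells 2807 and 1024, macrophage-like cells 201 and 1185, and neutrophil-like cells 64 and 3505.

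Levels are given as CPM, the UMIs of a gene per 1000000 UMIs of the same cells. Over all kept cells the 33 genes together were at 3316 and 6406 CPM. This total mixes cell types in different proportions, so levels were compared within each type, as the UMIs of a gene summed over the cells of the type and divided by all UMIs of those cells. The comparison differed between types. In macrophage-like cells the summed level of the 33 genes stood at 5815 and 9556 CPM, and that of T cell-like cells at 3709 and 5781 CPM. In microglia-like cells the sums were close, at 3580.3 and 3509 CPM. In neutrophil-like cells, of which the control Ab library held only 70664 UMIs, they were 6142 and 7894 CPM.

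Gene by gene, members with at least 50 UMIs over both libraries were compared as the log2 ratio of anti-CD9 Ab over control Ab, with 0.5 added to each count. A gene can reach that minimum through 1 library alone. In macrophage-like cells 31 of the 33 had that many, their median log2 ratio was 0.74 against -0.03 over all 8990 genes with as many UMIs, and 28 were higher and 3 lower with anti-CD9 Ab. Of these 31, 13 were at least 2-fold higher and 0 at least 2-fold lower, where 7.79% and 6.51% of all 8990 genes were. Of all 8990 genes, 47.7% were higher by any amount. In T cell-like cells the median over 30 members was 0.56 against -0.09 over 9806 genes, and 26 were higher and 4 lower. There, 6 were at least 2-fold higher and 0 at least 2-fold lower, beside 3.95% and 2.4% of all genes, and 39.7% of all genes were higher by any amount. In microglia-like cells the median over 31 members was 0.00 against 0.01 over 11199 genes, with 16 higher and 15 lower. None of the 31 was at least 2-fold higher and 1 was at least 2-fold lower, beside 3.18% and 4.26% of all genes. By any amount, 51.3% of all genes were higher in microglia-like cells. In neutrophil-like cells the median over 31 members was 0.18 against -0.31 over 6152 genes, and it was 0.18 as well with the gene that had no control Ab UMI set at its lower bound. There, 11 members were at least 2-fold higher and 4 at least 2-fold lower, beside 15.9% and 24.4% of all genes, so that large ratios were common among all genes of this type. Adm, which encodes the vasodilator adrenomedullin, had under 50 UMIs in each of the 4 types.

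**Figure D1:**
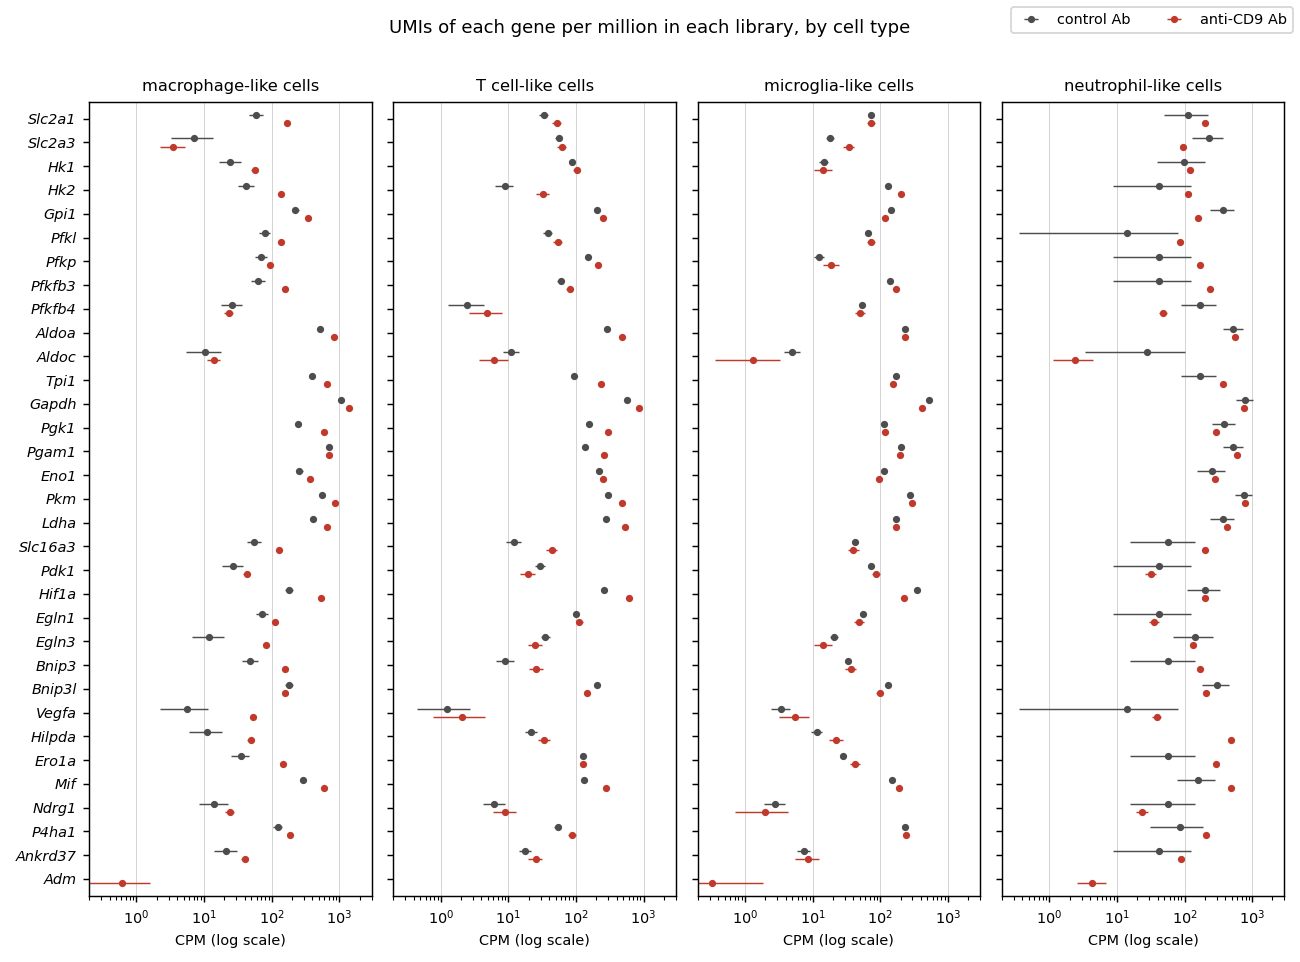
CPM (x axis, log scale) of each of the 33 genes (y axis) in macrophage-like, T cell-like, microglia-like and neutrophil-like cells, in grey for control Ab and in red for anti-CD9 Ab, with exact Poisson 95% intervals of the count as bars; a library without a UMI of the gene has no point. The red points lie to the right of the grey ones for 28 of 31 compared genes in macrophage-like cells, and for 16 of 31 in microglia-like cells. Of all genes, 47.7% and 51.3% were higher with anti-CD9 Ab in these 2 types.

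The promoters of the members with the highest ratios are shown because most of the 33 genes are known as targets of HIF-1. HIF-1 is known to bind a short core, ACGTG or GCGTG, at hypoxia response elements. The 250 bases before the RefSeq transcript start were read for 30 of the 33 genes (GRCm38.p6), not for Bnip3l, Ndrg1 or Slc2a3, and searched for both cores on both strands; ACGTG and its reverse complement overlap where they form CACGTG. Taking any listed start of a gene, either core was found in 27 of the 30 genes, against 41.5% of 27025 genes in all and 63.3% of the 7164 genes with a promoter entry and at least 50 UMIs in macrophage-like cells. ACGTG alone was found in 18 of the 30 (60.0%), against 18.5% and 26.6%. With the most upstream listed start of each gene alone, a way of counting added after seeing the data, it was 22 of the 30 (73.3%) for either core, against 38.6% and 58.8%. The windows of the members had a median GC content of 62.8%, against 52.4% and 60.0%. The lines below give the window of the most upstream start for the 3 genes with the highest ratios in macrophage-like cells and the 3 with the highest in T cell-like cells, 5′ to 3′ on the gene's strand, with the cores on either strand in capitals.
Vegfa (chr17:46032378-46032627, - strand): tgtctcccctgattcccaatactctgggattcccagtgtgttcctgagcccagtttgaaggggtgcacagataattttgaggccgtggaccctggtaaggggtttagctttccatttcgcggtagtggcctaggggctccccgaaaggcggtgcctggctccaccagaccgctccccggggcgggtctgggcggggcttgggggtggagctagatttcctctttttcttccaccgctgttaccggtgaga
Egln3 (chr12:54203875-54204124, - strand): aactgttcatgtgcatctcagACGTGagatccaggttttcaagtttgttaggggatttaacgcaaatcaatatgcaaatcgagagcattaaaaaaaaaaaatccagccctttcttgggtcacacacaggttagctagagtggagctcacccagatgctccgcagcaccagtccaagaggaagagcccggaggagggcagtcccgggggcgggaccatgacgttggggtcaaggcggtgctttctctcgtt
Hilpda (chr6:29272238-29272487, + strand): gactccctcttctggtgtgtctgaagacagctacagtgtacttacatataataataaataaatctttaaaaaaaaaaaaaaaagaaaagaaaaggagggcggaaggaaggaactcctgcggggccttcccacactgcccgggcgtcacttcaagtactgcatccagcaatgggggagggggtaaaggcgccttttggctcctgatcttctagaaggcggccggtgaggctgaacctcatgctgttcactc
Hk2 (chr6:82774455-82774704, - strand): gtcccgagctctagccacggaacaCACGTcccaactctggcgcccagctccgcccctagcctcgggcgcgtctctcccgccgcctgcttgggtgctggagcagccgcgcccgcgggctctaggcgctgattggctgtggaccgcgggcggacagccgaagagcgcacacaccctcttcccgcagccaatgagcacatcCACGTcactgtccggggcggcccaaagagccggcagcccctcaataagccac
Slc16a3 (chr11:120948817-120949066, + strand): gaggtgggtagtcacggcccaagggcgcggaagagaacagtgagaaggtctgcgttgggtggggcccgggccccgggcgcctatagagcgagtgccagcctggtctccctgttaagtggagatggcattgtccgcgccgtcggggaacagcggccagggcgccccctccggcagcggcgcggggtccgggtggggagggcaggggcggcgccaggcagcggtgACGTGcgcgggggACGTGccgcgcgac
Bnip3 (chr7:138909507-138909756, - strand): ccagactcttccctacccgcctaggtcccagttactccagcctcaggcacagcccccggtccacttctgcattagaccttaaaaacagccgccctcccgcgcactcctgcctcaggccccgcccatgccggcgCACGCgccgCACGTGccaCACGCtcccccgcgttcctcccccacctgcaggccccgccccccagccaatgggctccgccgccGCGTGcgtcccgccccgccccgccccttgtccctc
The Vegfa and Hilpda windows held no core, the Bnip3 window held 5 and the Egln3 window 1, an ACGTG. A further listed start, downstream of the one shown, had 2 in its window for Vegfa and 3 for Hilpda. That Vegfa window (chr17:46025164-46025413) lies past the first listed start, and its nearest core was 206 bases before its own start. A match of 5 letters is a description of the sequence and not a binding site, and no binding was measured here.

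The glucose transporters bring the sugar across the plasma membrane. In macrophage-like cells Slc2a1, which encodes the widely expressed transporter GLUT1, was at 59.2 and 171 CPM (log2 ratio 1.52, 1.19 to 1.86), a difference beyond the counting error. T cell-like cells had it at 33.5 and 51.6 CPM (log2 ratio 0.62, 0.30 to 0.94), and microglia-like cells at 73.3 and 73.0 CPM (log2 ratio 0.00, -0.22 to 0.21). Slc2a3, which encodes the high-affinity transporter GLUT3, had under 50 UMIs in macrophage-like cells. It was higher with anti-CD9 Ab in microglia-like cells, at 18.3 and 34.2 CPM (log2 ratio 0.91, 0.57 to 1.25). In neutrophil-like cells it was lower, at 226 and 95.9 CPM, with 16 and 400 UMIs (log2 ratio -1.28, -1.99 to -0.57).

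In macrophage-like cells the 13 enzymes together were at 4171 and 6207 CPM (log2 ratio 0.57, 0.53 to 0.61), and 12 of them were higher and 1 lower with anti-CD9 Ab. Of all genes compared in these cells, 47.7% were higher. Gapdh, which oxidises glyceraldehyde 3-phosphate, was at 1052 and 1399.5 CPM (log2 ratio 0.41, 0.33 to 0.49). Within the macrophage sub-cluster that held most control Ab cells (sub-cluster 1) it was lower (log2 ratio -0.21), as were Pgam1 (-0.20) and Eno1 (-0.29). Pkm, the pyruvate kinase that makes pyruvate, was at 559 and 868 CPM (log2 ratio 0.63, 0.52 to 0.75), and Aldoa, the aldolase that splits the six-carbon sugar, at 514 and 849 CPM (log2 ratio 0.72, 0.61 to 0.84). Pgam1, a phosphoglycerate mutase, had the lowest ratio of the enzymes, at 702 and 702 CPM (log2 ratio 0.00, -0.11 to 0.10). The enzymes with the largest ratios were the hexokinases, which trap glucose in the cell, and Pgk1, a phosphoglycerate kinase that yields ATP. Hk2 was at 41.8 and 139 CPM (log2 ratio 1.72, 1.32 to 2.11), Hk1 at 24.5 and 55.9 CPM (log2 ratio 1.17, 0.65 to 1.70), and Pgk1 at 246 and 588 CPM (log2 ratio 1.25, 1.09 to 1.42).

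In T cell-like cells the enzymes were at 2261 and 3510.2 CPM (log2 ratio 0.63, 0.60 to 0.67), again with 12 higher and 1 lower, where 39.7% of all genes were higher. Hk2 and Slc16a3 had the highest ratios of the members there, with intervals that overlapped. Hk2 was at 8.84 and 32.2 CPM (log2 ratio 1.86, 1.34 to 2.38), from a low level of 43 and 93 UMIs. Tpi1, the triose phosphate isomerase, was at 94.6 and 235 CPM (log2 ratio 1.31, 1.14 to 1.48). Gapdh (569 and 846 CPM), Pkm (302 and 473 CPM), Aldoa (285 and 486 CPM) and Pgam1 (137 and 262 CPM) were all higher with anti-CD9 Ab, with intervals above 0. Aldoc, the aldolase typical of brain, was the one lower enzyme, at 11.1 and 6.24 CPM (log2 ratio -0.81, -1.57 to -0.05). The astrocyte markers in T cell-like cells summed to 61.3 and 16.3 CPM, and their part in that value was not tested.

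Over all microglia-like cells there was no such shift of the enzymes, which were at 1983 and 1942 CPM together (log2 ratio -0.03, -0.07 to 0.01), with 5 higher and 8 lower, where 51.3% of all genes were higher. Gapdh was lower with anti-CD9 Ab over all microglia-like cells, at 518 and 421 CPM (log2 ratio -0.30, -0.39 to -0.21), but level within clusters, where the median log2 ratio was 0.00, while Aldoa (229.8 and 229 CPM) and Pgam1 (201 and 199 CPM) were level. Pkm was at 271 and 292 CPM (log2 ratio 0.11, 0.00 to 0.22). Hk2 went the other way, at 128 and 203 CPM (log2 ratio 0.67, 0.53 to 0.80), and with both antibodies microglia-like cells had the highest Hk2 level of any type. The lowest ratio was that of Aldoc, at 4.95 and 1.30 CPM from 55 and 4 UMIs (log2 ratio -1.77, -3.16 to -0.38). Astrocyte-like cells had the highest Aldoc level in both libraries, at 65.1 and 105 CPM. The astrocyte markers in microglia-like cells summed to 313 and 483 CPM, with 1 of 4 compared higher and 3 lower. Their part in the Aldoc value was not tested. In neutrophil-like cells the enzymes were at 3977 and 4279 CPM (log2 ratio 0.10, -0.07 to 0.27). The abundant ones differed by less than the counting error there, with Gapdh at 778 and 766 CPM, Pkm at 750.0 and 777 CPM, Aldoa at 524 and 550.2 CPM and Pgam1 at 524 and 589 CPM.

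**Figure D2:**
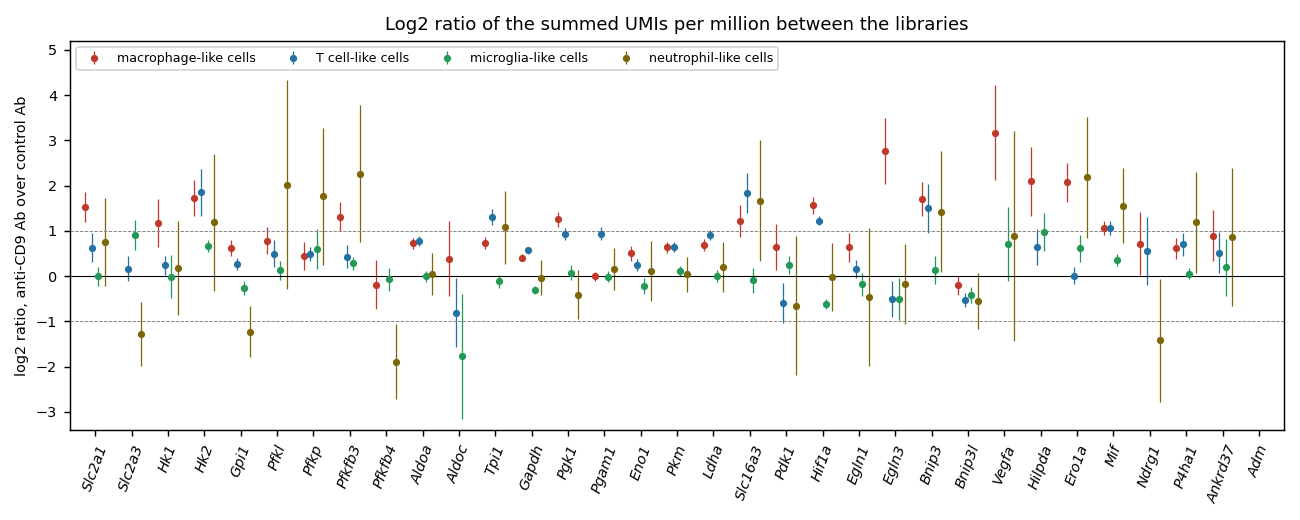
Log2 ratio of CPM, anti-CD9 Ab over control Ab (y axis), for the genes (x axis) with at least 50 UMIs over both libraries and a UMI in each (so not Adm, nor Hilpda in neutrophil-like cells), coloured by cell type, with 95% counting intervals as bars and dashed lines at 2-fold. Macrophage-like values reach 3.17 for Vegfa, microglia-like values stay between -1.77 and 0.97, and the bars of neutrophil-like cells are wide because the control Ab library held 64 such cells.

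Pfkfb3 and Pfkfb4 make and break down fructose 2,6-bisphosphate, the activator of phosphofructokinase. Pfkfb3, the form with the strong kinase activity, was higher with anti-CD9 Ab in macrophage-like cells, at 63.1 and 158 CPM (log2 ratio 1.32, 0.99 to 1.64). In neutrophil-like cells it was at 42.5 and 237 CPM, the former from 3 UMIs (log2 ratio 2.26, 0.75 to 3.77). Pfkfb4 was not higher in any of the 3 types in which it was compared. It was at 26.0 and 23.2 CPM in macrophage-like cells (log2 ratio -0.19, -0.73 to 0.35) and had the lowest ratio of all members in neutrophil-like cells, at 169.8 and 47.7 CPM from 12 and 199 UMIs (log2 ratio -1.89, -2.71 to -1.06).

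Lactate dehydrogenase A turns pyruvate into lactate, and the transporter encoded by Slc16a3 (MCT4) exports it. The 3 genes of this group together were at 495 and 838 CPM in macrophage-like cells (log2 ratio 0.76, 0.64 to 0.88) and at 323 and 591 CPM among T cell-like cells (log2 ratio 0.87, 0.77 to 0.97). Ldha was at 413 and 667 CPM in macrophage-like cells (log2 ratio 0.69, 0.56 to 0.82; -0.10 within that sub-cluster, with an interval that held 0) and at 281 and 528 CPM among T cell-like cells (log2 ratio 0.91, 0.80 to 1.01), and in microglia-like cells it was level, at 174 and 174 CPM. Slc16a3 was higher with anti-CD9 Ab in T cell-like cells, at 12.1 and 43.6 CPM (log2 ratio 1.84, 1.40 to 2.29). In macrophage-like cells it was at 55.2 and 129 CPM (log2 ratio 1.21, 0.86 to 1.56), and in microglia-like cells at 43.0 and 40.1 CPM (log2 ratio -0.10, -0.38 to 0.19). Pdk1, which encodes a kinase that keeps pyruvate out of the mitochondrial citrate cycle, did not follow Ldha in T cell-like cells. It was lower there, at 29.6 and 19.4 CPM (log2 ratio -0.60, -1.05 to -0.16), and in macrophage-like cells it was at 26.8 and 42.7 CPM (log2 ratio 0.65, 0.14 to 1.16).

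The direction of Hif1a differed between cell types. With control Ab its level was highest in microglia-like cells, at 346 CPM (335 to 357), then T cell-like cells, at 260.1 CPM (246 to 275), and macrophage-like cells had 181 CPM (159 to 207). The neutrophil-like, astrocyte-like, dendritic cell-like, B cell-like and oligodendrocyte-like values, between 155 and 198 CPM, had intervals that overlapped that of macrophage-like cells. With anti-CD9 Ab the order was another. T cell-like cells had 609.7 CPM (582 to 639), macrophage-like cells 538 CPM (520.0 to 556) and microglia-like cells 226 CPM (209 to 243). The log2 ratio was 1.56 in macrophage-like cells (1.37 to 1.76), 1.23 in T cell-like cells (1.12 to 1.33) and -0.61 in microglia-like cells (-0.73 to -0.50). NK cell-like cells, at 107 and 254 CPM (log2 ratio 1.24, 0.83 to 1.66), were also higher with anti-CD9 Ab, and neutrophil-like cells were level, at 198 and 202 CPM. The NK cell-like cluster had Cd8b1 and Cd8a among its leading genes beside Gzma and Nkg7. Its T cell markers summed to 9366 and 6390 CPM, so its values are not those of NK cells alone.

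**Figure D3:**
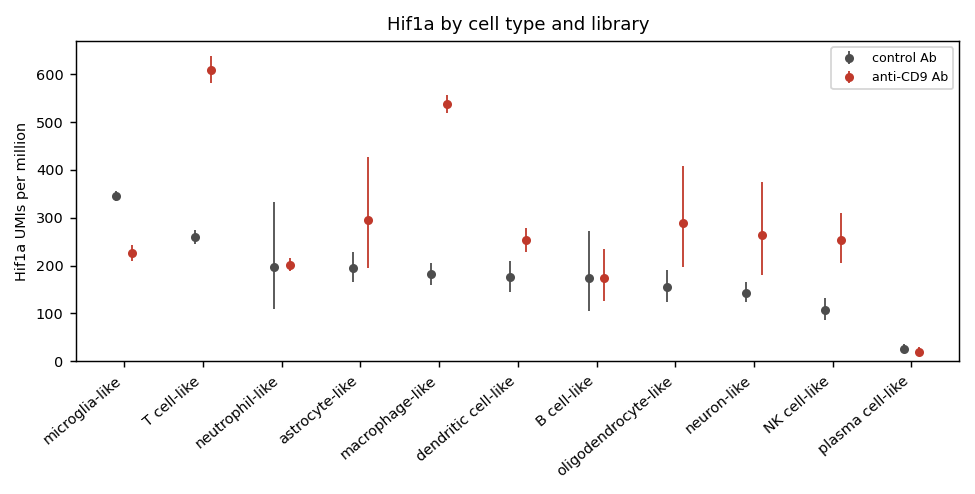
Hif1a CPM (y axis) in the cell types with at least 50 Hif1a UMIs (x axis, ordered by the control Ab level), in grey for control Ab and in red for anti-CD9 Ab, with exact Poisson 95% intervals as bars. Macrophage-like and T cell-like cells lie higher with anti-CD9 Ab, at 538 and 609.7 CPM, and microglia-like cells lie lower, at 226 CPM.

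The share of cells with a Hif1a UMI differed between the antibodies in the same direction as the CPM within macrophage-like, T cell-like and microglia-like cells after each cell had been thinned to 1000 UMIs. In macrophage-like cells it was 18.1% (36 of 199 cells) and 38.6% (456 of 1181), leaving out 2 and 4 shallower cells. T cell-like cells had 21.6% (534 of 2467) and 37.6% (356 of 948), leaving out 340 and 76, and microglia-like cells 24.9% (486 of 1952) and 19.1% (160 of 836), leaving out 54 and 18. Without thinning, the shares were 56.7% and 84.5% in macrophage-like cells, 31.9% and 59.6% in T cell-like cells and 56.9% and 44.7% in microglia-like cells. The direction was the same within clusters. In cluster 1, led by Siglech and P2ry12, genes of resting microglia, Hif1a was at 233 and 158 CPM (log2 ratio -0.56, -0.73 to -0.38). In cluster 6, led by Lpl, Spp1 and Cst7, genes of reactive microglia, it was at 428 and 364 CPM (log2 ratio -0.23, -0.39 to -0.07). In the T cell-like clusters it was at 296 and 770.2 CPM (log2 ratio 1.38, 1.24 to 1.52) in cluster 0, led by Ctla4 and Themis, at 236 and 591 CPM (log2 ratio 1.33, 1.13 to 1.52) in cluster 7, led by Scart1 and Trdc, and at 176 and 394 CPM (log2 ratio 1.17, 0.71 to 1.62) in cluster 11, led by Trdc and Trgc1. The microglia-like difference was not kept without integration of the libraries, where the log2 ratio was 0.11 over 206 microglia-like cells of the anti-CD9 Ab library. That count leaves out an unnamed cluster led by Ccl12 and Cxcl13, with 89 and 630 cells, which was nearest to microglia but had only 3 of 10 microglia markers up.

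The prolyl hydroxylases that mark HIF for destruction are themselves induced by it. Egln3 (PHD3) was much higher with anti-CD9 Ab in macrophage-like cells, at 11.8 and 82.6 CPM from 15 and 538 UMIs (log2 ratio 2.76, 2.03 to 3.48). In T cell-like and microglia-like cells it was lower, at 35.2 and 24.6 CPM (log2 ratio -0.51, -0.91 to -0.11) and at 20.5 and 14.3 CPM (log2 ratio -0.51, -0.97 to -0.04). Egln1 (PHD2), the main oxygen sensor, had a smaller ratio, with 71.8 and 112 CPM in macrophage-like cells (log2 ratio 0.64, 0.32 to 0.95) and intervals that held 0 in the other 3 types.

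Among the further genes induced by HIF, 9 of 10 were compared in macrophage-like cells, where 8 were higher with anti-CD9 Ab and 5 of these at least 2-fold. Of all 8990 genes compared in these cells, 47.7% were higher and 7.79% at least 2-fold higher. Vegfa, the growth factor for blood vessels, had the highest ratio of all members, at 5.52 and 53.2 CPM from 7 and 347 UMIs (log2 ratio 3.17, 2.13 to 4.22). Hilpda, a lipid droplet protein that inhibits the breakdown of triglycerides, was at 11.0 and 48.8 CPM (log2 ratio 2.09, 1.34 to 2.85), and Ero1a, an oxidase that forms disulfide bonds in the endoplasmic reticulum, at 34.7 and 148 CPM (log2 ratio 2.07, 1.64 to 2.51). Bnip3, which directs mitochondria to autophagy, was at 48.1 and 157 CPM (log2 ratio 1.70, 1.33 to 2.07). Its relative Bnip3l was not higher and had the lowest ratio in macrophage-like cells, at 181 and 158 CPM (log2 ratio -0.20, -0.41 to 0.01). Mif, a cytokine that holds macrophages in place, was at 289.6 and 603 CPM (log2 ratio 1.06, 0.90 to 1.21).

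After thinning to 1000 UMIs, a Vegfa UMI was seen in 1 of 199 macrophage-like cells of the control Ab library (0.503%, 0.0127 to 2.77%) and in 57 of 1181 of the anti-CD9 Ab library (4.83%, 3.68 to 6.21%). Without thinning the shares were 2.99% and 19.6%. In dendritic cell-like cells of the anti-CD9 Ab library, 0 of 325 thinned cells had one, which allows a share of up to 1.13%, and without thinning 4 of 374 did (1.07%). Neutrophil-like cells of that library had a thinned Vegfa share of 3.23% (72 of 2226). The Vegfa level was highest in astrocyte-like cells in both libraries, at 97.7 and 116 CPM. Their thinned shares were 11.7% (33 of 282) and 7.14% (2 of 28, 0.877 to 23.5%). A Hilpda UMI was seen in 52 of 1181 thinned macrophage-like cells (4.40%) with anti-CD9 Ab and in 0 of 199 with control Ab, which allows a share of up to 1.84%. Without thinning the shares were 6.47% and 13.4%. The thinned share for Hilpda in dendritic cell-like cells of the anti-CD9 Ab library was 1 of 325 (0.308%). Thinned to 2000 UMIs it was 3.75% (11 of 293), against 7.10% (81 of 1141) of the macrophage-like cells, and without thinning 5.88%. The median depths before thinning were 5137 UMIs in those macrophage-like cells and 4180.5 in those dendritic cell-like cells.

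Bnip3 was higher with anti-CD9 Ab in T cell-like cells, at 9.05 and 25.6 CPM (log2 ratio 1.50, 0.96 to 2.03), and Mif was at 134 and 279.9 CPM (log2 ratio 1.07, 0.92 to 1.22), whereas Bnip3l was lower, at 207 and 144 CPM (log2 ratio -0.53, -0.69 to -0.36). Vegfa had under 50 UMIs there. Ero1a was level, at 127 and 128 CPM (log2 ratio 0.01, -0.18 to 0.20). In microglia-like cells these genes differed by less than 2-fold, with Ero1a at 28.0 and 42.7 CPM (log2 ratio 0.61, 0.32 to 0.90), Bnip3l at 131 and 98.4 CPM (log2 ratio -0.41, -0.59 to -0.23) and Vegfa at 3.42 and 5.54 CPM (log2 ratio 0.72, -0.10 to 1.53). Hilpda had the highest microglia-like ratio, at 11.5 and 22.5 CPM (log2 ratio 0.97, 0.55 to 1.39). Without predicted doublets its log2 ratio was -0.34, and without integration -0.041. The share of microglia-like cells with a Hilpda UMI was 6.08% and 4.68%, against the direction of the CPM. Thinned to 1000 UMIs it was 0.717% (14 of 1952) and 1.20% (10 of 836), and thinned to 2000 UMIs 2.41% and 2.47%, with intervals that overlapped, so no order was read.

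In neutrophil-like cells the group as a whole was at 764 and 1997 CPM (log2 ratio 1.37, 0.99 to 1.76), and Hilpda made the largest part of the difference. No Hilpda UMI was counted among 70664 UMIs of the control Ab library, and 2012 among 4171132 of the anti-CD9 Ab library (482 CPM), which is at least 11.4-fold higher than the 3 counts, or 42.5 CPM, that a count of 0 allows. Within cluster 5, which held 51 of the 64 control Ab cells, it was at 0 and 46.7 CPM, and the interval of the log2 ratio held 0 (-1.55 to 6.48). Over all neutrophil-like cells, the 482 CPM with anti-CD9 Ab was the highest Hilpda level of any type. Ero1a was at 56.6 and 289.8 CPM (log2 ratio 2.19, 0.85 to 3.52) and Mif at 156 and 479 CPM (log2 ratio 1.56, 0.72 to 2.39). Ndrg1, a stress-induced gene of the same group, was lower, at 56.6 and 23.7 CPM from 4 and 99 UMIs (log2 ratio -1.42, -2.78 to -0.05).

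Because the macrophage-like cells of the libraries could differ in kind, they were divided further into 4 sub-clusters, none of which was given a name. Most control Ab cells, 149 of 201 (74.1%), lay in sub-cluster 1, led by Spp1, Gpnmb and Fabp5, genes of lipid-handling phagocytes, with Cd9 itself among its 10 leading genes. It held 271 of the 1185 cells of the other library (22.9%). Sub-cluster 0, led by Nos2, Slc7a2 and Ptges, genes of inflammatory activation, held 8 and 446 cells (3.98% and 37.6%), and 35.2% of its cells were predicted doublets. Sub-cluster 2, led by Cd72, Cd101 and the class II gene H2-Eb1, held 19 and 259 cells, and sub-cluster 3, led by the monocyte genes Ifitm6 and Ccr2, held 25 and 209. With anti-CD9 Ab the summed level of the 33 genes was 11829 CPM in sub-cluster 0, 6875 in sub-cluster 1, 9154 in sub-cluster 2 and 8509 in sub-cluster 3. With control Ab, in the same order, it was 8214, 5891, 4625 and 5431 CPM, the first and the last 2 from 8, 19 and 25 cells. Sub-cluster 1 was thus lowest with anti-CD9 Ab but not with control Ab, and in each of the 4 the sum was higher with anti-CD9 Ab.

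Within sub-cluster 1, the only one with at least 50 cells of both libraries, the sums were 5891 and 6875 CPM. The median log2 ratio over the 26 members with at least 50 UMIs was 0.41, against 0.06 over 6117 genes, and 19 were higher and 7 lower. The share of all genes higher by any amount was not counted there. Of the 26, 5 were at least 2-fold higher and 0 at least 2-fold lower, where 4.36% and 3.37% of all genes were. The enzymes were divided there. Gapdh, at 1084 and 939 CPM (log2 ratio -0.21, -0.32 to -0.10), and likewise Pgam1 and Eno1 were lower with anti-CD9 Ab, with intervals below 0. Aldoa was higher, at 515 and 716 CPM (log2 ratio 0.48, 0.33 to 0.62), as was Pgk1, at 236 and 399 CPM (log2 ratio 0.75, 0.54 to 0.97), and Ldha was at 429 and 401 CPM (log2 ratio -0.10, -0.28 to 0.08). The 5 members at least 2-fold higher were Egln3, at 10.9 and 68.4 CPM (log2 ratio 2.60, 1.72 to 3.47), Hk2, at 38.5 and 96.3 CPM (log2 ratio 1.31, 0.80 to 1.81), Hif1a, at 157 and 376 CPM (log2 ratio 1.26, 1.00 to 1.51), Ero1a, at 32.6 and 78.6 CPM (log2 ratio 1.25, 0.70 to 1.80), and Bnip3, at 48.4 and 98.9 CPM (log2 ratio 1.02, 0.56 to 1.48). Vegfa and Hilpda were under the minimum of 50 UMIs there, with 6 and 41 UMIs of Vegfa and 12 and 29 of Hilpda.

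**Figure D4:**
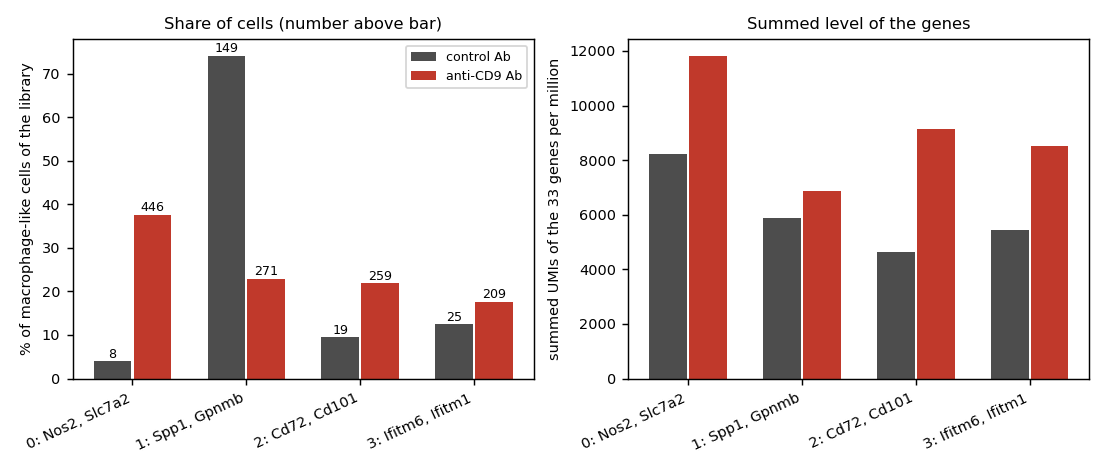
Left, percent of the macrophage-like cells of each library (y axis) in the 4 sub-clusters (x axis, with 2 leading genes each), with the number of cells above each bar; right, the summed CPM of the 33 genes (y axis); grey is control Ab and red anti-CD9 Ab. Sub-cluster 1 held 74.1% of the control Ab cells and had the lowest anti-CD9 Ab sum, 6875 CPM. The lowest control Ab sum, 4625 CPM, was that of sub-cluster 2, from 19 cells.

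Other marker lists also differed between the macrophage-like cells of the libraries. The 8 monocyte markers summed to 1712 and 6237 CPM, with 8 of 8 higher with anti-CD9 Ab, the 10 microglia markers to 4393 and 1038 CPM, with 8 of 9 compared lower, and the 10 neutrophil markers to 271 and 739 CPM. The 22 genes induced by tissue dissociation summed to 2788 and 4634 CPM, and the median percent of mitochondrial counts was 1.26 and 1.42. Their part in the result was not tested. Without predicted doublets the median log2 ratio of the members was 0.66 and 12 were at least 2-fold higher.

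In T cell-like cells the difference was present in each of the clusters large enough to compare. The median log2 ratio of the members was 0.56 in cluster 0, 0.68 in cluster 7 and 1.12 in cluster 11, against -0.05, -0.12 and -0.05 over all genes. Slc16a3 was at 4.32 and 41.1 CPM (log2 ratio 3.20, 2.28 to 4.12) in cluster 0 and at 19.3 and 47.8 CPM (log2 ratio 1.30, 0.63 to 1.97) in cluster 7. T cell-like cells of the anti-CD9 Ab library were deeper, with medians of 2337 against 1551 UMIs, and the neutrophil markers in T cell-like cells summed to 189.8 and 1093 CPM, with 8 of 8 compared higher. The dissociation genes summed to 3199 and 4082 CPM. Haemoglobin and other erythroid genes summed to 412 and 116 CPM, with 4 of 4 compared lower. A further T cell-like cluster (20), led by Ube2c, Top2a and Mki67, genes of dividing cells, was too small to compare. It held 37 and 89 cells, with medians of 4667 and 6132 UMIs, and is part of the values over all T cell-like cells. The part of these in the result was not tested.

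In microglia-like cells the members were higher within clusters than over both. Of 29 members compared in each cluster, 18 were higher and 11 lower in cluster 1, and 21 and 8 in cluster 6. The share of all genes that were higher was not counted within these clusters. Cluster 1 held 1087 and 582 cells. Without integration the cluster led by Siglech held 918 and 85 cells, and the unnamed one led by Ccl12 and Cxcl13 held 89 and 630, so these values depend on integration. The median was 0.05 in cluster 1 and 0.26 in cluster 6, against -0.03 and -0.01 over all genes, and cluster 6, in which the 33 genes stood higher (4343 and 5165 CPM, against 2534 and 2699 CPM in cluster 1), held 919 of 2006 and 272 of 854 cells. Pkm, for instance, was at 135 and 194 CPM (log2 ratio 0.53, 0.35 to 0.71) in cluster 1 and at 371 and 493 CPM (log2 ratio 0.41, 0.27 to 0.55) in cluster 6. Haemoglobin and other erythroid genes in microglia-like cells summed to 14.1 and 445 CPM and neutrophil markers to 509.5 and 1139 CPM, while microglia markers summed to 13903 and 8314 CPM. Their part in these values was not tested.

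The 64 neutrophil-like cells of the control Ab library lay mostly in a single cluster, with 51 in cluster 5, 7 in cluster 2 and 6 in cluster 8. Within cluster 5 the sums of the 33 genes were close, at 6265 and 6068 CPM. The median log2 ratio over 27 members was 0.24, against -0.004 over 3785 genes, with 14 members higher and 13 lower. There, 3 had intervals above 0, namely Slc16a3, at 68.5 and 313 CPM (log2 ratio 2.02, 0.68 to 3.36), Mif, at 119.8 and 295 CPM (log2 ratio 1.20, 0.16 to 2.25), and Pfkfb3, at 17.1 and 142 CPM (log2 ratio 2.48, 0.16 to 4.79). The 4 with intervals below 0 were Gpi1, at 428 and 197 CPM (log2 ratio -1.14, -1.73 to -0.56), Pgk1, at 394 and 202 CPM (log2 ratio -0.99, -1.60 to -0.38), Pfkfb4, at 188 and 102 CPM (log2 ratio -0.94, -1.80 to -0.07), and Ldha, at 411 and 252 CPM (log2 ratio -0.73, -1.32 to -0.14). The intervals of Ero1a and Slc2a3 held 0. The share of all 3785 genes that were higher, or that had intervals above or below 0, was not counted in this cluster. Over all neutrophil-like cells the neutrophil markers summed to 88079 and 35145 CPM, the macrophage markers to 6722 and 1445 CPM and the dissociation genes to 5321 and 15517 CPM. Their part in the result was not tested.

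The neutrophil-like cells of the anti-CD9 Ab library, which the control Ab library hardly held, fell into 3 clusters that differed in these genes. Each cluster had been found with the members and the other pathway genes left out of the clustering. Cluster 2 (1488 cells), led by Gadd45b, Lcn2, Mreg, Hilpda and Gdf15, had the highest level of 26 of the 33 genes and a sum of 11298 CPM. The share of all genes that were highest in each cluster was not counted, so these counts are not set against it. Without integration, a cluster led by Gdf15, Gadd45b and Hilpda (9 and 789 cells) was nearest to neutrophils but was not named, with 1 of 10 neutrophil markers up. Cluster 5 (1201 cells), led by Retnlg, S100a8 and Cxcr2, genes of circulating neutrophils, had 6068 CPM and the highest level of 5. Cluster 8 (816 cells), led by the chemokine genes Ccl4, Cxcl2 and Cxcl10, had 4986 CPM and the highest level of 2.

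Hilpda was at 882 CPM in cluster 2, 396 CPM in cluster 8 and 46.7 CPM in cluster 5. Ero1a followed the same order, at 477, 217 and 113 CPM, as did Pfkfb3, at 299, 255 and 142 CPM. In the order of clusters 2, 8 and 5 as before, Gapdh was at 1079, 382 and 697 CPM and Tpi1 at 666, 170.5 and 173 CPM. The hexokinases were highest in cluster 8, with Hk1 at 90.9, 189.6 and 98.0 CPM and Hk2 at 110.4, 166 and 70.1 CPM. The genes that were highest in cluster 5 included Slc16a3 (156, 144 and 313 CPM), Slc2a3 (51.3, 49.6 and 193 CPM) and Hif1a itself (149, 189 and 281 CPM). The 9 genes of the integrated stress response, Gdf15 among them, summed to 945 CPM in cluster 2, 257 in cluster 5 and 327 in cluster 8, and the dissociation genes to 11238, 14996 and 22423 CPM. Their part in the differences was not tested.

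**Figure D5:**
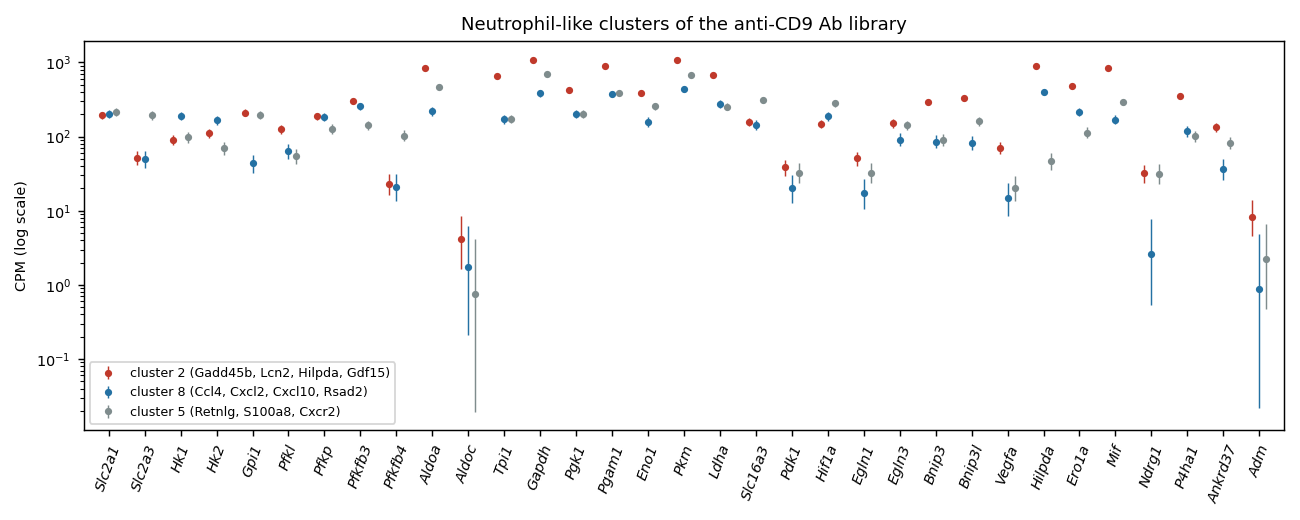
CPM (y axis, log scale) of the 33 genes (x axis) in the 3 neutrophil-like clusters of the anti-CD9 Ab library, coloured by cluster, with exact Poisson 95% intervals as bars. Cluster 2 is highest for 26 genes, while Hif1a, Slc2a3 and Slc16a3 are highest in cluster 5. The share of all genes highest in each cluster was not counted.

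In the remaining types fewer members had at least 50 UMIs. In dendritic cell-like cells 20 of 23 were higher with anti-CD9 Ab (median log2 ratio 0.52), where 47.0% of all genes were higher, and in NK cell-like cells 14 of 19 (median 0.16, 50.1% of all genes). The NK cell-like cells also carried T cell markers (9366 and 6390 CPM), and their erythroid genes summed to 1110 and 18.7 CPM. The part of these in that median was not tested. Astrocyte-like, oligodendrocyte-like and neuron-like cells had medians of 0.62, 0.33 and 1.04 over 11, 12 and 22 members, against -0.03, 0.00 and -0.06 over all genes, from 78, 95 and 75 cells of the anti-CD9 Ab library. Marker lists also differed there. In neuron-like cells the neuron markers summed to 2426 and 9458 CPM, the astrocyte markers to 5819.9 and 1748 CPM, the neutrophil markers to 135 and 3028 CPM and the dissociation genes to 515 and 2695 CPM. Their oligodendrocyte markers summed to 5302 and 3983 CPM and their oligodendrocyte precursor markers to 2977 and 4008 CPM. With control Ab, each of these glial lists thus stood above the neuron markers in the cells named neuron-like. In oligodendrocyte-like cells the erythroid genes summed to 79.2 and 7696 CPM and the neutrophil markers to 171 and 4986 CPM, and in astrocyte-like cells the macrophage markers to 253 and 4066 CPM. Their part in these medians was not tested. Plasma cell-like and B cell-like cells were the types with a median below 0, at -0.19 over 16 members and -0.35 over 10, against 0.08 and 0.05 over all genes. The B cell-like value rests on 32 control Ab cells, and 7 of its 10 members had intervals that held 0.

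A further 70 genes of the same pathways, which are not on the list, were read in the same way. They too were chosen with earlier results of these data known, and they differed among themselves. In macrophage-like cells the 31 other genes of the HIF pathway and its targets gave 21 with at least 50 UMIs, of which 19 were higher with anti-CD9 Ab and 8 at least 2-fold (median log2 ratio 0.49). Of all 8990 genes in these cells, 47.7% were higher and 7.79% at least 2-fold higher. The 31 other genes of glycolysis and pyruvate gave 16, of which 7 were higher and 9 lower (median -0.06), and the 8 of the pentose phosphate pathway were evenly divided, 4 higher and 4 lower. The highest were Nos2, the inducible nitric oxide synthase (1.58 and 309.8 CPM, log2 ratio 7.30, 5.51 to 9.09), and Ak4, a mitochondrial adenylate kinase (0.789 and 13.2 CPM, log2 ratio 3.49, 1.16 to 5.82). The lowest were Ldhb, the lactate dehydrogenase that favours pyruvate (76.5 and 28.8 CPM, log2 ratio -1.41, -1.76 to -1.06), and Mpc1, a subunit of the carrier that brings pyruvate into mitochondria (435 and 194 CPM, log2 ratio -1.16, -1.31 to -1.02).

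Among the 18 other HIF genes compared in T cell-like cells, 13 were higher and 4 at least 2-fold, with Cxcr4, a chemokine receptor (11.5 and 56.8 CPM, log2 ratio 2.29, 1.86 to 2.73), and Hmox1, a heme oxygenase (8.22 and 17.7 CPM, log2 ratio 1.10, 0.51 to 1.69), highest. Of all genes in these cells, 39.7% were higher and 3.95% at least 2-fold higher. Of the other glycolysis and pyruvate genes, 4 of 15 were higher, and Ldhb (20.6 and 8.31 CPM, log2 ratio -1.28, -1.92 to -0.65) and Bpgm, which makes 2,3-bisphosphoglycerate (45.0 and 19.1 CPM, log2 ratio -1.23, -1.66 to -0.81), were lowest. Erythroid genes were lower in T cell-like cells too, at 412 and 116 CPM, and their part in these values was not tested. In microglia-like cells 13 of 20 and 10 of 20 of these lists were higher, with Hmox1 (63.5 and 163 CPM, log2 ratio 1.36, 1.19 to 1.52) and Tfrc, the transferrin receptor (5.22 and 9.77 CPM, log2 ratio 0.92, 0.28 to 1.55), highest and Pdk2 (5.31 and 1.95 CPM, log2 ratio -1.34, -2.51 to -0.17) and the fructose transporter gene Slc2a5 (64.9 and 30.3 CPM, log2 ratio -1.09, -1.40 to -0.78) lowest. Among all genes of microglia-like cells, 51.3% were higher. In neutrophil-like cells 11 of 19 and 4 of 10 were higher, where 38.5% of all genes were. The lowest were Tkt, a transketolase (509 and 63.1 CPM, log2 ratio -3.03, -3.53 to -2.53), and Mpc2 (255 and 73.1 CPM, log2 ratio -1.84, -2.51 to -1.16). Plin2, which coats lipid droplets, (42.5 and 312 CPM, log2 ratio 2.66, 1.14 to 4.17) was the highest there with a UMI in both libraries, and Nos2 had 0 and 496 UMIs.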

How the data were processed

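Thalamic CD45+ cells of mice with CAI were sequenced as 1 single-cell library per antibody. The deposited values are counts: the authors used Cell Ranger 8.0.0 per the file headers and the submitters' processing notes, with GRCm39, to count UMIs per gene and barcode, and the study's methods name another version and build. The filtered matrices held 33696 gene rows, and rows of the 26 symbols on more than 1 row (Aldoa among them) were summed.

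Cells with 200 to 7500 genes and at most 2% mitochondrial counts were kept, after the study's methods. Libraries were integrated by anchors in Seurat 5.3.0 (R 4.3.3) on 2000 variable genes without the members and the other pathway genes, then clustered with 30 components at resolution 0.8. A cluster was named when at least 50% of a fixed marker list, and at least 3 markers, were up in it. The limits of that rule were set after seeing the data, so names may differ from the study's. Doublets were marked from simulated doublets at 0.8% per 1000 barcodes (731 and 1112 of the kept cells) and kept. The libraries shared 54 barcodes before filtering.

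UMIs were summed per type and library with Python 3.11.15, SciPy 1.17.1 and scikit-learn 1.9.0. Intervals are exact Poisson for levels, exact binomial for shares, and from Poisson errors for ratios. The ratio and its interval were tested on simulated Poisson counts, which hold no spread between cells or mice. Depth was 38042608 and 40825201 UMIs before filtering, and for CPM a count of 0 was taken to allow up to 3 counts. No test between the antibodies was run, each having 1 library. A gene counted as past the fold at 2-fold in a type where both libraries together held at least 50 UMIs.

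Named in each type were the 3 highest and 3 lowest ratios and the 5 members with the highest mean CPM, and of the other pathway genes the 2 highest and 2 lowest. Genes named beyond that rule were chosen after their values were seen. The members, lists and markers were chosen with earlier results of these data known. Promoters came from RefSeq (GRCm38.p6). Alternatives covered the mitochondrial limit, integration, components, resolution, doublets, variable genes, scaling, the UMI minimum, cell weights, pooling of clusters and thinning.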

Additional observations from a re-analysis of the deposited data

Results flagged for a closer look

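Hif1a was singled out because its log2 ratio of anti-CD9 Ab over control Ab had opposite signs in different cell types of the same 2 libraries. It was -0.61 in microglia-like cells, against 1.56 in macrophage-like cells and against 1.23 in T cell-like cells. The difference between the types was not tested, since each antibody had 1 library, and the microglia-like value was above 0 without integration of the libraries. Opposite signs were not particular to Hif1a. Egln3 and Gapdh were also higher over all macrophage-like cells and lower over all microglia-like cells.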

How the results depend on the processing

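No paired analysis was possible because the labels give no replicate numbers and each antibody had 1 library. For the same reason no library could be left out. The median log2 ratio of the members ranged over the processing alternatives from 0.66 to 0.95 in macrophage-like cells, 0.38 to 0.68 in T cell-like cells, -0.13 to 0.16 in microglia-like cells and -0.05 to 0.49 in neutrophil-like cells. In macrophage-like cells it was 0.41 within the sub-cluster with at least 50 cells of both libraries, an alternative added after seeing the data. Between 12 and 16 members were at least 2-fold higher in macrophage-like cells under the alternatives that recounted them.

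In microglia-like cells 1 member was at least 2-fold higher with up to 5% mitochondrial counts and with 20 principal components, and 0 were at least 2-fold lower with the members kept in the variable genes, without predicted doublets, or at a minimum of 200 UMIs. In macrophage-like cells 1 was at least 2-fold lower with the members kept in the variable genes and at a minimum of 20 UMIs. In neutrophil-like cells 2 were at least 2-fold lower after centring on the median of all genes. In T cell-like cells 3 were at least 2-fold higher at a minimum of 200 UMIs, and 1 was at least 2-fold lower with up to 5% mitochondrial counts. The minimum of UMIs acts by changing which members are counted, and for the other settings the cause was not tested.

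Of 504 recomputed values of single genes, 462 stayed within their counting interval, 38 left it, and 4 whose interval had held one sign changed sign. Those 4 were all in microglia-like cells. Hif1a was at 0.11 and Hilpda at -0.041 without integration, Hilpda was at -0.34 without predicted doublets, and Gapdh was at 0.0027 within clusters. The cause was not tested. Apart from these, the shares of cells with a Hif1a or Hilpda UMI were recomputed, and 14 left their interval and 2 did not, both without thinning and with cells thinned to 2000 UMIs. Such a share rises with the depth kept. For Hif1a the order of the antibodies was the same at each depth in macrophage-like, T cell-like and microglia-like cells. For Hilpda in microglia-like cells the order changed, from 6.08% and 4.68% without thinning to 0.717% and 1.20% at 1000 UMIs, with intervals that overlapped at both depths. Depth limited neutrophil-like cells most of the 4 main types, since 64 control Ab cells gave 70664 UMIs.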
